A study of Mus musculus with 4 samples.

Results

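The comparison described here sets the heart of a mouse group given N-acetyl cysteine (NAC) before cyclophosphamide (CY) against the heart of the group given normal saline (NS), with 1 array for each side, 2 of the 4 arrays of the series. Both arrays were chosen by their labels alone. Of 36614 genes or transcripts named on the array, 19728 were measured, that is, had a probe well above background on at least 1 of the 2 arrays. The animals on both sides were female *C57BL/6J* mice, 6 weeks old per the labels, and were injected intraperitoneally once daily on 2 consecutive days. The NAC + CY mice received NAC at 200 mg/kg 2 h before CY at 400 mg/kg, and the NS mice received saline only. Hearts were taken 3 h after the last dose by the study's methods, although some sentences of its results give days instead of hours for the expression data, so the time is not settled. All 4 arrays lay on the same slide. The series also holds an array of CY alone at 400 mg/kg and an array of acrolein at 5 mg/kg, whose values are given beside those of NAC + CY where they help to read them. All 3 treated arrays are compared with the same NS array, so these comparisons are not independent of each other. No array of NAC alone was analysed here, so the contributions of NAC and of CY cannot be told apart. The design text speaks of 3 independent studies, but each condition has 1 array, and whether its RNA came from 1 heart or from a pool is not given in the sources used here.

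CY is an alkylating prodrug that the liver oxidises, and its breakdown yields phosphoramide mustard, which crosslinks DNA, and acrolein, a reactive aldehyde that consumes glutathione. NAC supplies cysteine for glutathione synthesis and can react with acrolein through its thiol, which is why it is studied as a protective agent. DNA damage is known to activate the transcription factor p53, and reactive aldehydes activate Nrf2, which drives genes of antioxidant defence, haem breakdown and glutathione conjugation. Lymphocytes are among the cells most sensitive to CY, and the heart normally holds resident macrophages and antigen-presenting cells besides cardiomyocytes, endothelium, pericytes and fibroblasts.

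Values are signals of single-colour Agilent arrays in arbitrary units, quantile-normalised over the 4 arrays, and a gene is represented by its brightest measured probe. A difference was called when the ratio was at least 1.5 with an intensity-based Z-score of at least 2, or at most 0.66 with a Z-score of at most -2. The Z-score is the distance of a log2 ratio from the mean of the 200 probes nearest in signal, in units of their SD. With 1 array a side, no difference could be set against a spread between replicates, no p-value can be given, and a call describes these 2 arrays and not the conditions. Repeated spots of a probe within an array had a median SD of 0.047 log2 units on NS and 0.050 on NAC + CY, and the scanner software's own error for a log2 ratio had a median of 0.21. These errors cover the measurement of an RNA sample and leave out the spread between mice. Cardiomyocyte markers were bright on both arrays: *Myl2* had signals of 289600 on NS and 282500 on NAC + CY, and *Tnnt2* 236910 and 238120. The controls *Gapdh* (log2 ratio 0.06) and *Actb* (-0.33) were not called.

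In all, 586 genes were called higher in the NAC + CY heart and 585 lower by at least 1 of their probes. Each is 2.97% of the genes measured, the share beside which every count of called list members below is to be read. In a short list, few or no calls lie near that share. By the brightest probe alone, 531 (2.69%) were higher and 515 (2.61%) lower. The median log2 ratio over all genes was -0.01, with quartiles of -0.26 and 0.23. By the raw ratio, changes of 4-fold or more were found for 195 genes called higher and 105 called lower. These counts include probes not well above background on 1 array, for which only a bound on the change can be given. Such probes were unevenly split, with 2208 well above background on NAC + CY only and 632 on NS only. The difference between 195 and 105 is therefore not a measure of direction. With only probes well above background on both arrays, 501 genes were called higher and 594 lower, 2.77% and 3.29% of the genes measured in that way.

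**Figure D1:**
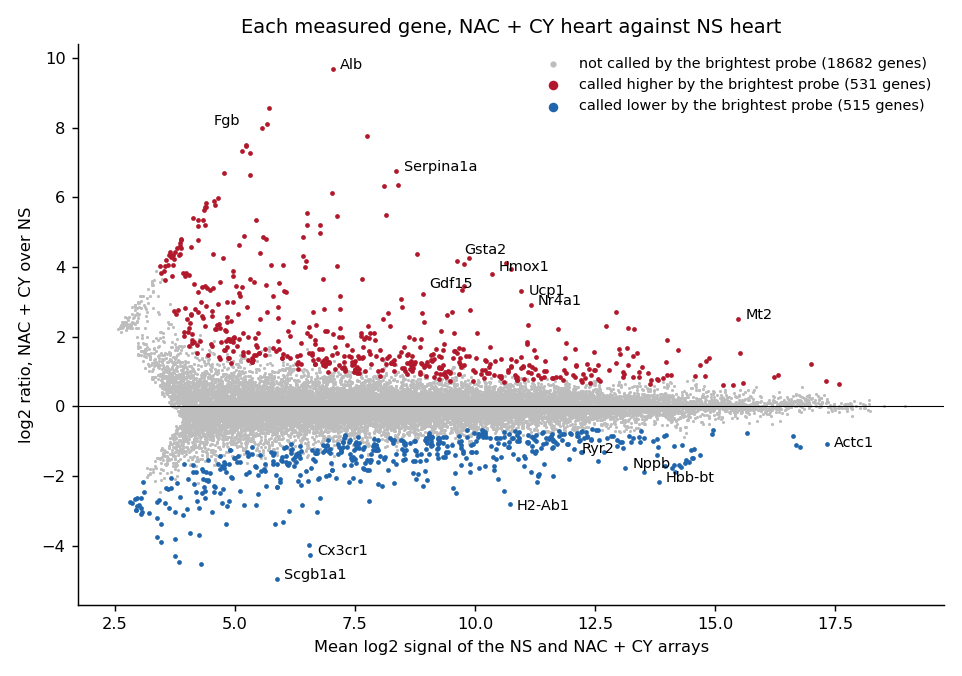
Log2 ratio of NAC + CY over NS (vertical axis) against the mean log2 signal of both arrays (horizontal axis), 1 point a gene by its brightest probe, red where called higher and blue where called lower, with 1 array a side and no error bars. *Alb* lies highest at 9.67 and *Scgb1a1* lowest at -4.97, and the SD of the log2 ratios within a window of like signal ranged from 0.19 to 1.80.

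Many genes that hepatocytes express were called higher. *Alb*, which encodes albumin, the main plasma protein, had a signal of 4.62 in the NS heart, 2.77 with CY, 2.73 with acrolein and 3767 with NAC + CY. The probe was not well above background on NS, so only a lower bound can be given: the signal was at least 229-fold higher than NS. Such bounds, here and below, compare the bright array with the lowest signal of a well-measured probe on the dim array, or with the probe's own signal where that is higher. *Fgb* and *Fgg*, the β and γ chains of fibrinogen, were at least 45.4-fold and at least 51.1-fold higher, and *Bhmt*, an enzyme of methionine metabolism, at least 62.1-fold. All 3 were also not well above background on NS.

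The α1-antitrypsin genes *Serpina1a*, *Serpina1c* and *Serpina1e* were well above background on both arrays. *Serpina1a* had signals of 31.7 in the NS heart, 15.8 with CY, 16.3 with acrolein and 3425 with NAC + CY, a 108-fold difference from NS. Members of this family, like the major urinary protein genes *Mup18* (at least 65.4-fold higher) and *Mup19* (log2 ratio 5.49), are close copies of each other, and a probe may read several. *Ttr*, the thyroid hormone carrier transthyretin, was at 19.2 in the NS heart, 151 with CY, 17.8 with acrolein and 384 with NAC + CY. *Cyp2e1*, an ethanol-inducible cytochrome P450, was at 210, 1006, 99.4 and 1129 in the same order, so that the CY array was nearly as high as NAC + CY for this gene but not for *Alb* or *Fgb*. *Cyp2a5*, another cytochrome P450 of liver, was at least 16.8-fold higher than NS. Apolipoprotein A-I (*Apoa1*) was at least 4.27-fold higher.

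Of 116 hepatocyte genes listed, 93 were measured, 65 were called higher and none was called lower. Most were measured only because of the NAC + CY array: 32 of the 93 were well above background in the NS heart, 36 with CY, 32 with acrolein and 93 with NAC + CY. A gene that entered in this way had to be higher, so the share of 65 in 93 is not evidence by itself. Among the 34 listed genes with a probe well above background on both arrays, 23 were called higher, against 2.77% of all genes measured in that way. The median log2 ratio of these 34 was 1.84. *Gc* (vitamin D-binding protein, at least 30.1-fold higher) and *F2* (prothrombin, at least 6.91-fold higher) are defining plasma proteins of liver, and their signals were 2.81 and 2.69 on NS. The part of RNA from liver in this result was not tested. Fewer or more cells of a type and less or more RNA per cell cannot be told apart in these bulk samples.

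Genes of fat tissue were higher in the same heart. *Ucp1*, the uncoupling protein of brown fat, had signals of 635 in the NS heart, 962 with CY, 153 with acrolein and 6287 with NAC + CY. *Adipoq*, the adipocyte hormone adiponectin, had 330, 489, 72.3 and 1027. *Plin1*, which coats lipid droplets, had 44.3, 137, 12.5 and 304. For these 3 genes the NAC + CY array was the highest and the acrolein array the lowest of the 4, so that the fat signal differed between hearts in both directions. Of 34 fat genes measured, of 36 listed, 20 were called higher and none lower, with a median log2 ratio of 0.96. *Cfd*, adipsin, was at 1.16 on the log2 scale, *Pck1*, an enzyme of glyceride and glucose synthesis that liver also uses, at 2.85, and *Fasn*, fatty acid synthase, at 1.56. *Fabp4* (0.17), *Pparg* (0.13) and *Lep* (-0.10) were not called. *Fabp4* is also expressed by heart endothelium.

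Acute phase genes, which the liver and other tissues switch on in inflammation, overlapped with the hepatocyte list in 7 of 25 measured members. Of the other 18, 11 were called higher and none lower. Of the 25, 17 were well above background on NS and 25 on NAC + CY, so some entered through NAC + CY alone. Among 17 listed genes with a probe well above background on both arrays, 10 were called higher, against 2.77% of all genes measured in that way. Their median log2 ratio was 1.80. *Hp*, haptoglobin, which binds free haemoglobin, was at 438 in the NS heart, 2697 with CY, 254 with acrolein and 6718 with NAC + CY. *Serpina3n*, a protease inhibitor that many tissues make, was at 21.0, 606, 54.7 and 381, and *Lcn2*, lipocalin-2, which sequesters bacterial iron carriers, at 290, 1608, 480 and 1879. Both serum amyloid genes that the liver makes in bulk, *Saa1* (4.37) and *Saa2* (at least 191-fold), were called higher, while the extrahepatic *Saa3* (0.58) was not. *Timp1* (-0.24) and *Lbp* (0.27) were also not called. Of 54 complement and coagulation genes measured, 17 were called higher and none lower, but 20 of the 54 are hepatocyte genes, and the median of the other 34 was 0.00 with 7 called. *C3* (0.84) and *C4b* (1.31), which heart cells also express, were among those 7. This list too had members that entered through NAC + CY alone, since 34 of the 54 were well above background on NS. Of 35 genes with a probe well above background on both arrays, 6 were called higher, and their median log2 ratio was -0.0039.

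**Figure D2:**
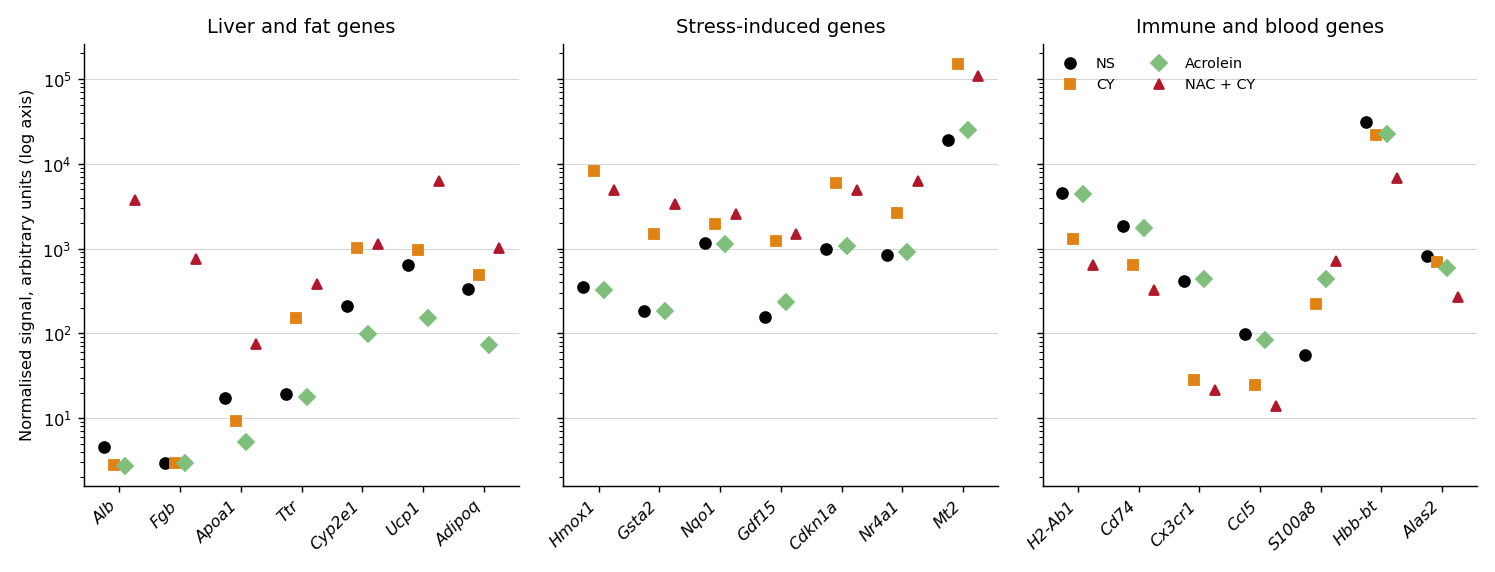
Normalised signals on a log axis (arbitrary units) of 21 genes on each of the 4 arrays, NS (circle), CY (square), acrolein (diamond) and NAC + CY (triangle), 1 array each and no error bars. *Alb* and *Fgb* are near the floor on all arrays but NAC + CY, *Hmox1* and *Cdkn1a* are high on both CY-containing arrays, and *H2-Ab1*, *Cd74* and *Cx3cr1* are low on both.

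Targets of Nrf2 were called higher in 19 of 41 measured cases, of 44 listed, and in none lower, with a median log2 ratio of 0.71. *Hmox1*, haem oxygenase 1, which degrades haem to biliverdin, iron and carbon monoxide, had signals of 349 in the NS heart, 8135 with CY, 325 with acrolein and 4850 with NAC + CY, a 13.9-fold difference between NAC + CY and NS. *Gsta2*, a glutathione transferase of class alpha, had 185, 1477, 186 and 3337. *Ephx1*, microsomal epoxide hydrolase, had 4290, 17558, 4274 and 20481. In each case the acrolein heart lay near NS and both CY-containing hearts lay above it. *Gsta2* has close copies that its probe may also read.

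Other members of the Nrf2 list followed at smaller ratios. On the log2 scale *Osgin1*, an oxidative stress-induced growth inhibitor, was at 2.69, *Gsta4*, which conjugates lipid aldehydes, at 1.85, *Gstm1* at 1.27, *Srxn1*, sulphiredoxin, at 1.17, *Nqo1*, a quinone reductase, at 1.12, and *Gclm*, the regulatory subunit of the rate-limiting enzyme of glutathione synthesis, at 1.12. The catalytic subunit *Gclc* (0.75), *Gsr* (0.86) and *Txnrd1* (0.77) had positive ratios and were not called. The iron store genes *Fth1* (0.71) and *Ftl1* (0.61) were called higher from signals of 126270 and 34472 on NS, *Ftl1* by 1 of 2 probes, and *Tfrc*, the transferrin receptor, was called lower, with a signal of 1686 on NS and 535 on NAC + CY.

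Of the wider glutathione and aldehyde list, 5 of 41 measured genes were called higher and none lower. *Mgst1*, a membrane-bound glutathione transferase, was at 2.30 and *Gpx3*, the secreted glutathione peroxidase, at 1.45. The aldehyde dehydrogenases that clear reactive aldehydes were mostly close to NS: *Aldh1a1* had signals of 1001 on NS and 1339 on NAC + CY, against 2239 on CY, and *Aldh2* was at 0.47, neither being called. The metallothioneins, which bind zinc and copper, were called higher. *Mt2* had a signal of 19145 on NS, 149970 on CY and 109650 on NAC + CY, and *Mt1* had 85742, 222430 and 199040, whereas none of the other 14 measured genes of zinc transport and sensing was called.

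p53 targets were called higher in 14 of 40 measured cases and lower in 1, with a median log2 ratio of 0.64. *Cdkn1a*, the cell cycle inhibitor p21, had signals of 976 in the NS heart, 5910 with CY, 1083 with acrolein and 4901 with NAC + CY. *Gdf15*, a stress-induced hormone of the TGF-β family, had 156, 1212, 235 and 1473. *Trp53inp1*, a p53-induced nuclear protein, had 362, 2392, 397 and 2483. Among inducers of cell death, *Pmaip1* (Noxa) was at least 6.33-fold higher, *Bbc3* (Puma) was at 1.20 on the log2 scale, and *Bax* had a signal of 1352 on NS and 2896 on NAC + CY. The survival gene *Bcl2l1* was called higher too, with a log2 ratio of 1.19, by 4 of its 5 probes. *Mdm2* (0.74), the ubiquitin ligase that limits p53, *Ccng1* (-0.19) and *Ddb2* (0.05), also p53 targets, were not called, and *Trp53i11* was called lower (-1.84). The CY array had nearly the same values for the leading members, 2.60 for *Cdkn1a*, 2.95 for *Gdf15* and 2.72 for *Trp53inp1*.

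Genes that repair crosslinks and alkylated DNA were mostly near NS: 1 of 48 measured was called higher, *Poln*, a translesion polymerase (1.62), and none lower. Of 42 cell cycle and replication genes, *Wee1*, a kinase that holds cells before mitosis, was called higher (2.11), and *Cenpa* (-1.33) and *Ube2c* (-1.44) were called lower. *Mki67* (-0.61) and *Ccnb2* (-1.18), also tied to dividing cells, had negative log2 ratios and were not called.

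Immediate early genes, which are transcribed within minutes to hours of a stimulus, were called higher in 13 of 34 measured cases and in none lower. *Nr4a1*, a nuclear receptor without a known ligand, had signals of 837 in the NS heart, 2611 with CY, 917 with acrolein and 6298 with NAC + CY. *Atf3*, a stress-induced transcription factor, had 108, 379, 96.1 and 466, and *Fosb* had 31.0, 45.2, 30.2 and 98.1. The classical members *Fos* (0.56), *Egr1* (-0.11), *Jun* (-0.33) and *Ier2* (-0.03) were not called, so the calls covered part of the list. Of 34 genes induced by glucocorticoids, 15 were called higher and 1 lower. *Fkbp5*, a chaperone partner of the glucocorticoid receptor, was at 1.36 and *Cdo1*, which degrades cysteine, at 2.30. *Angptl4*, an inhibitor of lipoprotein lipase, was called lower (-1.71), against 0.84 on the CY array. Within the circadian clock, the repressor genes *Per1* (1.07), *Per2* (1.11), *Cry1* (at least 2.14-fold) and *Cry2* (0.80) were called higher and *Dbp*, a clock output gene, lower (-0.92), while *Arntl* (0.77) and *Nr1d2* (-0.30) were not called. Whether all hearts were taken at the same time of day is not given in the sources used here.

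**Figure D3:**
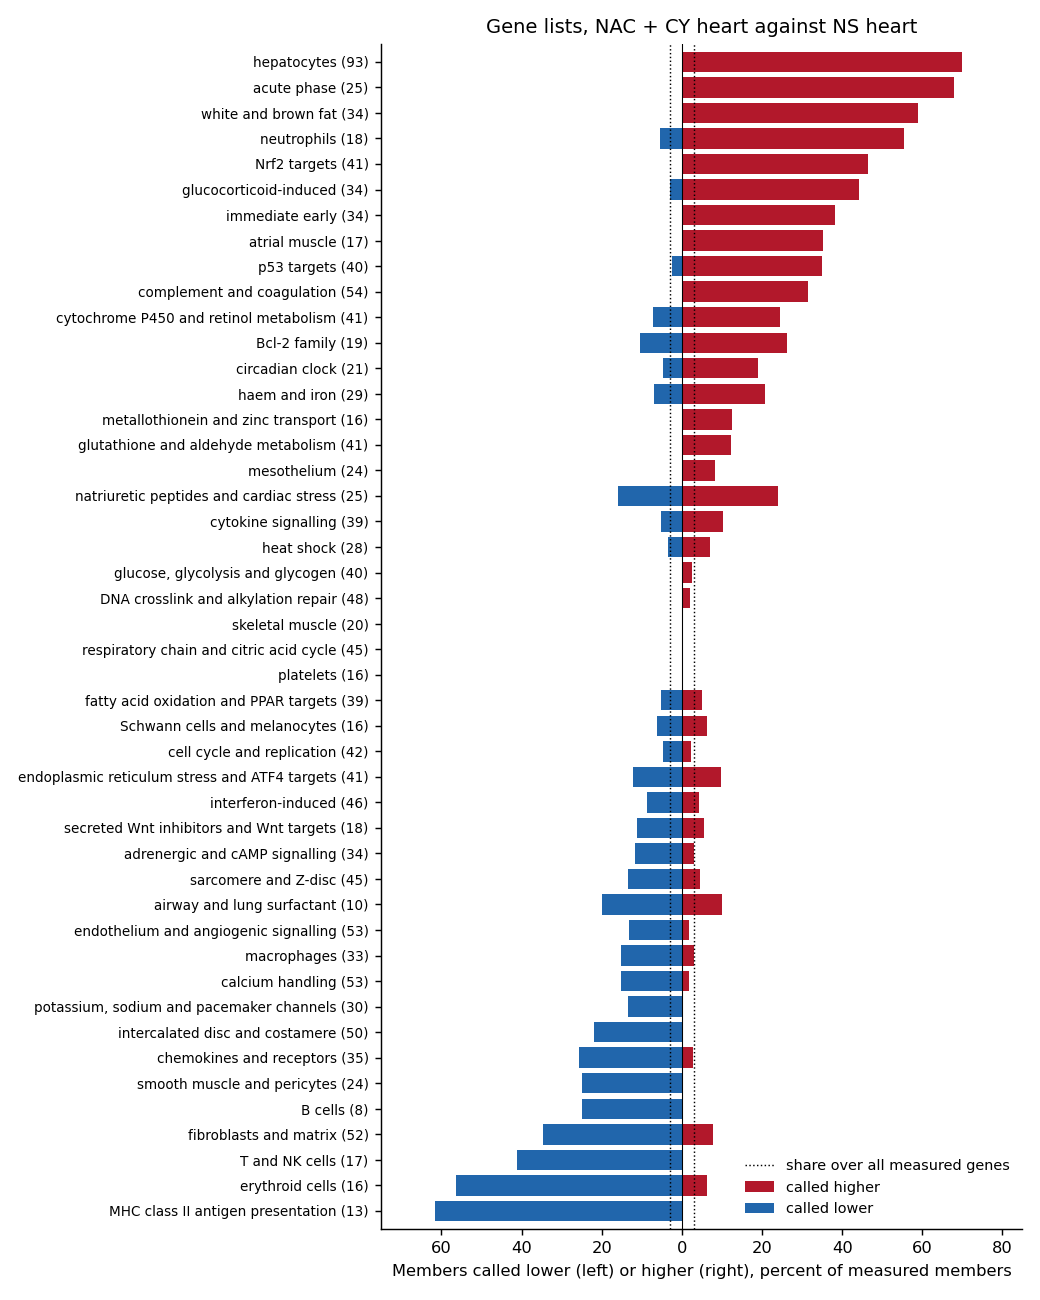
Share of the measured members (number in parentheses) of each of the 46 gene lists that were called lower, to the left in blue, or higher, to the right in red, in the NAC + CY heart against the NS heart, in percent. The dotted lines mark the 2.97% of all measured genes called in each direction, and the lists of hepatocytes and of MHC class II lie at the ends.

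MHC class II genes, which antigen-presenting cells use to show peptides to helper T cells, were called lower in 8 of 13 measured cases, of 22 listed, and in none higher. *H2-Ab1* had signals of 4472 in the NS heart, 1291 with CY, 4439 with acrolein and 636 with NAC + CY, a 7.04-fold difference between NS and NAC + CY, and all 4 of its probes were called. *H2-Aa* had 301, 76.8, 285 and 36.7, and *Cd74*, the invariant chain, had 1853, 638, 1747 and 327. The order was the same for the 3 genes, with NS and acrolein close together, CY below them and NAC + CY lowest. *H2-Eb1* was at -2.43, the peptide-loading gene *H2-DMa* at -1.32, and *Ciita*, the coactivator on which class II transcription depends, was at least 3.68-fold lower. *Ctss*, cathepsin S, which processes the invariant chain (-0.51), and the costimulatory *Cd86* (-0.95) were not called. Summed over the 13 genes, the signal was 12475 on NS and 3034 on NAC + CY.

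Lymphocyte genes were called lower in part. Of 33 T and NK cell genes listed, 17 were measured, all on NS and 8 of them also on NAC + CY, and 7 were called lower. A dim gene can enter through NS alone, which favours a lower call. Of the 8 genes measured on both arrays, 2 were called lower, *Ccl5* and *Lck*, against 3.29% of all genes. That filter in turn drops the genes that fell below background on NAC + CY, so neither count is free of selection. With dim signals raised to the lowest signal of a well-measured probe, 7 of the 17 were called lower. *Ccl5*, a T cell chemokine, had a signal of 97.6 on NS and 13.8 on NAC + CY, *Lck*, the kinase of the T cell receptor, had 52.5 and 18.8, and *Cd3d*, a subunit of that receptor, was at least 4.89-fold lower. *Cd3e* (-0.27) was not called. Of 8 B cell genes measured 2 were called lower and none higher, *Cd79b*, part of the B cell receptor, at least 7.3-fold, and *Cr2*, a complement receptor, by 1 of 2 probes with the brighter at 0.46. None of the 5 B cell genes measured on both arrays was called when only probes above background on both were kept.

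Chemokine receptors of monocytes and macrophages were lower as well. *Cx3cr1*, the fractalkine receptor, had signals of 417 in the NS heart, 28.2 with CY, 438 with acrolein and 21.6 with NAC + CY. *Ccr2*, which guides monocytes out of the marrow, was at least 2.28-fold lower, and the macrophage genes *Csf1r* (-0.74), *Clec7a* (-1.62) and *Retnla* (-2.14) were called lower. The general macrophage markers *Cd68* (0.08) and *Adgre1* (-0.64) were not called, and *Lgals3*, galectin-3, was called higher (1.43). Of the 33 measured macrophage genes 5 were called lower and 1 higher. Among 35 chemokine and receptor genes 9 were called lower and 1 higher, *Ccl19* (1.71). *Cxcl12*, a chemokine of stromal cells, was called lower (-0.95).

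Neutrophil genes went the other way. *S100a8* had signals of 56.2 in the NS heart, 221 with CY, 435 with acrolein and 714 with NAC + CY, and *S100a9* had 265, 1000, 2211 and 2875. Together they form calprotectin, the main cytosolic protein of neutrophils. *Retnlg*, resistin-like gamma, was at least 8.78-fold higher. In these 3 genes the NS array was the lowest of the 4, and since every comparison uses it, the neutrophil signal of that heart enters each of them. Of 18 measured neutrophil genes, of 29 listed, 10 were called higher and 1 lower, *G0s2* (-0.90), which fat and heart also express. Of the 13 measured on both arrays 7 were called higher. *Csf3r* (-0.01) and *Trem1* (0.00) were not called.

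Genes of red blood cells were lower. *Hbb-bt*, an adult β-globin, had signals of 30912 in the NS heart, 21770 with CY, 22268 with acrolein and 6835 with NAC + CY, and *Alas2*, which starts haem synthesis in red cell precursors, had 806, 685, 594 and 269. Of 16 erythroid genes measured, of 24 listed, 9 were called lower and 1 higher, and their summed signal was 376270 in the NS heart, 376500 with CY, 290910 with acrolein and 169580 with NAC + CY. *Slc4a1*, the anion exchanger of the red cell membrane, was at least 2.83-fold lower. None of 16 platelet genes was called, and *Itga2b*, an integrin of platelets, was not well above background on either array. Genes of other tissues also differed between hearts: *Scgb1a1*, an airway secretory protein, had signals of 329 in the NS heart, 314 with CY, 29.8 with acrolein and 10.5 with NAC + CY, at least 26.3-fold lower than NS, and surfactant protein C (*Sftpc*) 38.1, 31.4, 2.82 and 2.85, at least 3.04-fold lower. Of 17 genes of atrial muscle 6 were called higher and none lower, with *Myl7* at 0.65, *Myl4* at 0.88 and *Dkk3* at 1.80, against 1.52, 1.87 and 3.20 on the CY array. The part of such differences in tissue content in the other results was not tested. Genes on the lists of platelets, red cells, atrial muscle, mesothelium, hepatocytes, fat, airway, skeletal muscle, and Schwann cells and melanocytes were then left out. With them out, 492 genes remained called higher and 573 lower. Immune cell, acute phase and complement genes on none of those lists were kept, as were unlisted genes of these tissues. These counts are therefore not a measure of tissue content.

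Within heart muscle, most contractile genes were not called. Of 45 sarcomere and Z-disc genes, 2 were called higher and 6 lower, with a median log2 ratio of -0.10. This median was -0.30 with 75th percentile scaling. *Actc1*, cardiac α-actin, had signals of 240570 in the NS heart, 97740 with CY, 217640 with acrolein and 113530 with NAC + CY. *Ttn*, the giant spring protein titin, had 29959, 10786, 34482 and 13873, and *Fhl2*, a LIM protein of the Z-disc, had 134340, 49133, 153970 and 75067. In these 3 genes the CY array was the lowest and NAC + CY lay between it and NS. *Myh7*, the β-myosin heavy chain, was called higher (1.20), as was *Myot*, myotilin (1.36). *Myh6* (-0.06) was called lower by 1 of 2 probes, not by the brighter one.

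Calcium handling genes were called lower in 8 of 53 cases and higher in 1, with a median of -0.24. Most of this list was not called, and over all measured genes 2.97% were called in each direction. *Ryr2*, the release channel of the sarcoplasmic reticulum, had signals of 6577 in the NS heart, 2513 with CY, 7097 with acrolein and 2787 with NAC + CY. *Cacna1c*, the pore of the L-type calcium channel, had 2211, 597, 2684 and 805, and its auxiliary subunit *Cacna2d1* (-0.94) was called by 5 of 6 probes. *Casq2*, calsequestrin, was at -0.78. *Tmem38b*, a potassium channel of the reticulum, was the only gene of the list called higher (1.45). Among ion channels that shape the action potential 4 of 30 were called lower and none higher, including the potassium channel genes *Kcnd2* (-2.08), *Kcne1* (-1.73) and *Kcnq1* (-1.07). Of 34 adrenergic and cAMP signalling genes measured, 4 were called lower and 1 higher. Their median log2 ratio was -0.10, and 14 of the 34 were above 0. The β1-adrenergic receptor *Adrb1* was called lower (-1.37), with the kinase anchors *Akap5* (at least 4.18-fold) and *Akap7* (-1.93).

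The intercalated disc and the costamere, which tie cardiomyocytes to each other and to the matrix, had 11 of 50 genes called lower and none higher. *Dmd*, dystrophin, had signals of 586 in the NS heart, 218 with CY, 602 with acrolein and 184 with NAC + CY, *Sgcd*, δ-sarcoglycan, had 1346, 443, 1419 and 557, and *Ank2*, ankyrin-B, had 3909, 1387, 3608 and 1539. Integrin α9 (*Itga9*) was at -2.34. *Itga1* (-0.90) was not called, *Lama2* (-0.88) was called lower by 1 of its 5 probes, and *Ctnna3* had a brightest probe at 0.18 and another called lower, so its direction depends on the probe.

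For genes of energy metabolism, the share to compare with is the 2.97% of all measured genes called in each direction. None of 45 respiratory chain and citric acid cycle genes was called, and their median log2 ratio was 0.02. This median was -0.22 with 75th percentile scaling and -0.03 with the deposited value table. Under 75th percentile scaling the medians were -0.14 for channels, -0.15 for adrenergic genes, -0.28 for disc and costamere and -0.34 for calcium handling. Where the respiratory chain median lay among those lists thus depends on the normalisation. Of 40 glycolysis and glycogen genes 1 was called higher and none lower, and of 39 fatty acid oxidation and PPAR genes 2 were called in each direction. Lists of this size are too short to tell such counts from the share over all genes. Among markers of cardiac load, *Nppa*, atrial natriuretic peptide, was called higher (0.64). *Nppa* also marks atrial muscle, whose list had 6 of 17 genes called higher, and the part of atrial content was not tested. *Nppb*, B-type natriuretic peptide, was called lower, with signals of 16600 in the NS heart, 17220 with CY, 18610 with acrolein and 4834 with NAC + CY. *Ccn2*, connective tissue growth factor, was at 2.70, and *Il1rl1*, the interleukin-33 receptor, was at least 3.6-fold lower.

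**Figure D4:**
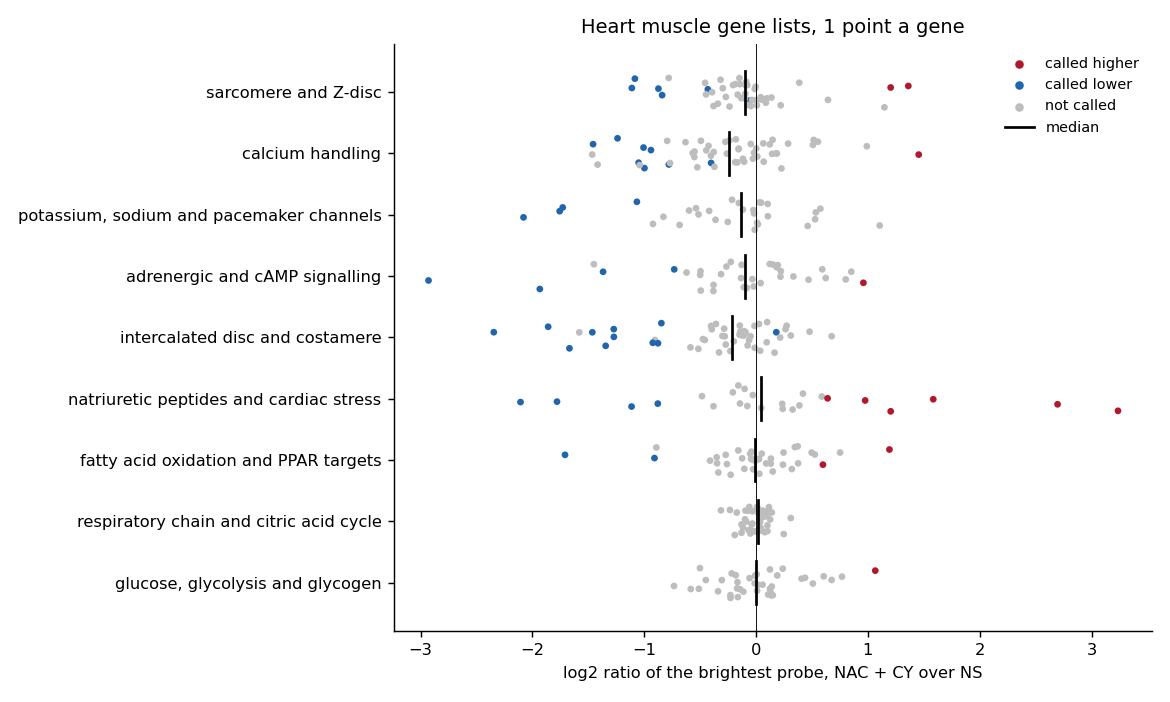
Log2 ratio of NAC + CY over NS (horizontal axis) for every measured gene of 9 heart muscle and metabolism lists, 1 point a gene by its brightest probe, coloured by the call of any of its probes, with the median of each list as a black bar and 1 array a side. Most called genes of the calcium, channel and intercalated disc lists lie left of 0, except *Tmem38b* at 1.45 and *Ctnna3* at 0.18 (called lower by another probe), and none is called in the respiratory chain list.

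Stromal genes were called lower in part. Of 52 fibroblast and matrix genes measured, 18 were called lower and 4 higher, with a median of -0.56. *Col3a1*, type III collagen, had signals of 5052 in the NS heart, 4247 with CY, 4033 with acrolein and 1276 with NAC + CY, *Col1a1* had 2532, 2156, 2191 and 1116, and *Eln*, elastin, had 247, 174, 174 and 62.6. For these 3 genes NAC + CY was the lowest array and the CY and acrolein hearts lay near each other. The basement membrane chains *Col4a1* (-1.21) and *Col4a2* (-1.19) were called lower, and were at -0.90 and -1.24 on the CY array. *Mmp3*, a matrix protease, was called higher (2.03).

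Vessel genes followed in 7 of 53 endothelial cases called lower and 1 higher, *Icam1* (1.59). *Apln* and its receptor *Aplnr* were at -2.73 and -2.99, *Notch1* at -2.12 and *Kdr*, the main receptor for vascular endothelial growth factor, at -1.50. *Pecam1* (0.23) was not called. Of 24 smooth muscle and pericyte genes 6 were called lower, among them *Acta2* (-1.40) and *Pdgfrb* (-0.81), and none higher.

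Several chaperones of the endoplasmic reticulum, which fold secreted and membrane proteins, were called lower while other genes of the same list were called higher. *Pdia6*, a protein disulphide isomerase, had signals of 13108 in the NS heart, 7029 with CY, 15490 with acrolein and 5710 with NAC + CY, and *Hsp90b1* had 21200, 11555, 26894 and 11729. *Calr*, calreticulin, was at -0.84 and *Sdf2l1* at -1.46. *Hspa5* (BiP), the central chaperone of the compartment, was at -0.59 and was not called. *Atf3* (2.11), *Slc3a2*, part of an amino acid transporter, *Gdf15* and *Ppp1r15a*, which reverses the block of translation, were called higher. Of 41 genes 4 were thus called higher and 5 lower, the fifth being *Vegfa* by 1 of 4 probes.

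The promoters of these chaperones are shown because several hold the endoplasmic reticulum stress element, CCAAT followed after 9 bases of any kind by CCACG, which is read by ATF6 with its partner NF-Y. The motif was chosen for this description after the values were seen, and was searched on both strands from 250 bases before to 50 after each RefSeq start (assembly GRCm38.p6). It occurs in 39 of 32851 promoters (0.119%). Of the 18 measured genes with it, 6 were called lower and none higher, where 2.97% of all measured genes were called lower. The count is a description only, since *Calr*, *Hsp90b1* and *Pdia6*, whose values led to the choice of the motif, are 3 of the 6. The 6 genes were *Calr*, *Hsp90b1*, *Pdia6*, *Derl3* (-2.06), which helps to export misfolded proteins, *Zfp57* (-1.85), an imprinting factor, and *Xlr3b* (-3.38). *Hspa5*, *Creld2* (0.11), *Dnajc3* (0.47) and *Canx* (-0.39) hold it as well and were not called. The stretches printed here run 5′ to 3′ on the gene's strand, with the element on either strand in capitals and 25 bases on each side.
Hsp90b1 (chr10:86705508-86705681, minus strand): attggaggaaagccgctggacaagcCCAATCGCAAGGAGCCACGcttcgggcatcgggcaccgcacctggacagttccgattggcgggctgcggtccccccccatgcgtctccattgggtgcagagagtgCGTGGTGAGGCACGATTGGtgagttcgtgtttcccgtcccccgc
Pdia6 (chr12:17266466-17266534, plus strand): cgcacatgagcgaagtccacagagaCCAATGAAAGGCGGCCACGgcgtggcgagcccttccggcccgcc
Calr (chr8:84847050-84847118, minus strand): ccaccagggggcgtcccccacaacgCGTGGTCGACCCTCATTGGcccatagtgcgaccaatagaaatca
Hspa5 (chr2:34772000-34772068, plus strand): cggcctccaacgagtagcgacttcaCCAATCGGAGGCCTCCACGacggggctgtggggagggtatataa

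The class II promoters are shown for the Y box, CTGATTGG, and the X box, GCAAC and GATG with 1 base between them, short elements through which CIITA acts, also searched after the values were seen. The Y box is in 4.1% of all promoters and the X box in 0.192%. Of 762 measured genes with the Y box 25 were called higher and 27 lower, with a median log2 ratio of 0.00, close to the share over all genes, so a match to the Y box alone did not go with a call. Of 27 measured genes with the X box 2 were called in each direction, with a median log2 ratio of 0.02. Capitals show both elements in *H2-Eb1* and the Y box in *H2-Aa*.
H2-Eb1 (chr17:34305751-34305837, plus strand): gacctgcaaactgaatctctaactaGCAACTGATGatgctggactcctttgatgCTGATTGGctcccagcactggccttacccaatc
H2-Aa (chr17:34287842-34287899, minus strand): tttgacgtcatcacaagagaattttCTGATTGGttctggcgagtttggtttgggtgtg

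Of the other motifs searched, the antioxidant response element TGACNNNGC was in 16.3% of the promoters of measured genes, in 15.7% of those of genes called higher and in 16.5% of those of genes called lower. The CCAAT box was in 42.2%, 45.9% and 42.5%, and the E-box CACGTG in 10.9%, 8.53% and 9.16%. The D-box TTANNTAA was in 4.7%, 7.37% and 5.34%, and the interferon-stimulated element (GAAA and GAAA with 2 bases between them) in 3.67%, 3% and 3.56%. The heat shock element (GAA, TTC and GAA with 2 bases after each of the first pair) was in 0.587%, 0.461% and 0.254%. The cAMP response element TGACGTCA was in 3.24%, 2.76% and 1.02%. Among 17 called Nrf2 targets with a promoter, 4 held the antioxidant response element, *Gclm*, *Srxn1*, *Gsta3* and *Nfe2l2*, the last called by 1 of 2 probes with the brighter at 0.12. No match says only that the letters are not in this window.

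Genes called lower and genes called higher also differed in a feature that the lists did not use, the length of the gene on the chromosome. The RefSeq table names 15546 of the measured genes and gives a span from start to end for each of them, and only these are described. The median span was 20.4 kb over all, 15.2 kb for 531 genes called higher and 38.2 kb for 521 called lower. Genes of 100 kb or more made up 12.0% of all, 3.95% of those called higher and 35.1% of those lower. Of 710 genes of 200 kb or more, 120 (16.9%) were called lower and 3 (0.423%) higher, whereas of 2488 genes under 5 kb 62 (2.49%) were lower and 116 (4.66%) higher. The median log2 ratio of the longest genes was -0.40, against 0.03 for genes under 5 kb. On the CY array the same 710 genes had a median of -0.57, and on the acrolein array 0.00.

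The calls in 2 heart muscle lists leaned the same way. Of 23 intercalated disc and costamere genes of 100 kb or more 10 were called lower, and of 27 shorter ones 1. Of 18 long calcium handling genes 5 were called lower, and of 35 shorter ones 3. The lower MHC class II, chemokine and erythroid genes were all shorter than 100 kb, so these calls did not follow that pattern. The median NS signal was 288 for genes of 200 kb or more and 421 for the others.

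**Figure D5:**
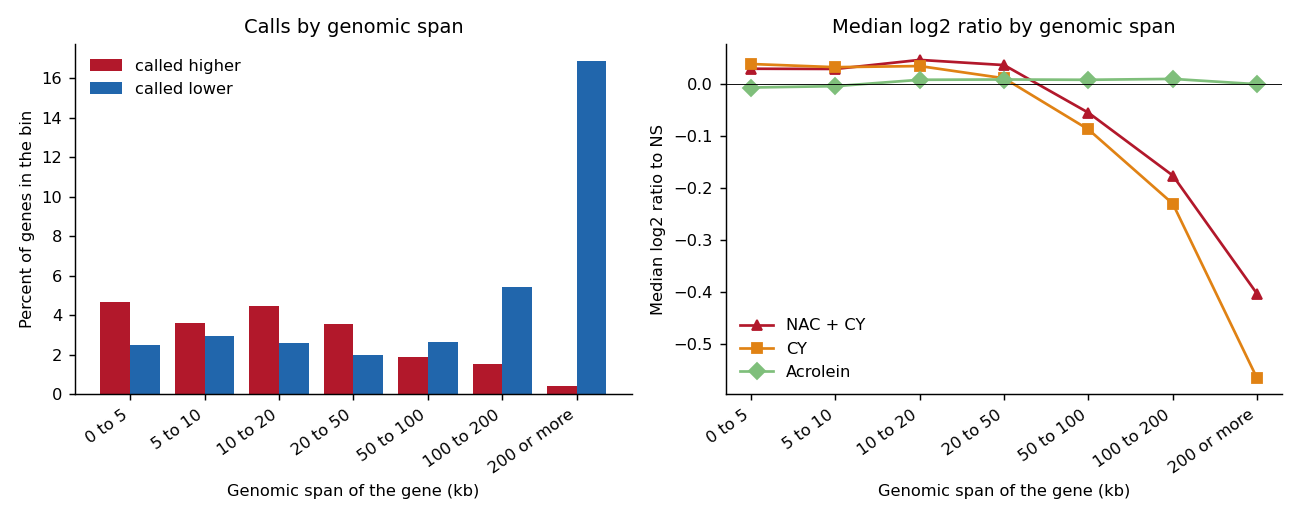
Left, percent of measured genes called higher (red) and lower (blue) in the NAC + CY heart by genomic span in kb, in 7 bins. Right, median log2 ratio to NS of the same bins for NAC + CY, CY and acrolein, which share the NS array; the median falls to -0.40 for NAC + CY and -0.57 for CY in the longest bin and stays at 0.00 for acrolein.

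Among the genes farthest from NS that belong to no list, 3 genes of the X-linked lymphocyte-regulated cluster on the X chromosome were lower together. *Xlr3b* (probe at chrX:70448087-70448146, mm9) had signals of 183 in the NS heart, 42.9 with CY, 168 with acrolein and 17.6 with NAC + CY. *Xlr4b* had 369, 84.9, 327 and 23.5, and *Xlr4a* was at least 7.52-fold lower than NS. The cluster consists of close copies, and these probes may read more than 1 of them. *Ermn*, ermin, a cytoskeletal protein known from oligodendrocytes, had 22543, 7006, 24283 and 6146, and *Pnma2* had 6268, 1817, 6481 and 1574. For these genes the acrolein heart lay near NS and both CY-containing hearts far below it.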

How the data were processed

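Heart RNA of 4 conditions was hybridised to single-colour Agilent arrays, 1 array for each. The authors deposited the scanner's background-subtracted fluorescence intensity of every spot, not normalised, extracted with Agilent Feature Extraction (version 9.5.1.1 in the submitters' notes, 10.7.1.1 in the file headers), and a table of linear values that correlated with the normalised intensity at 0.999998 or more. Here, log2 signals of 59305 non-control spots were quantile-normalised over the 4 arrays and averaged by probe, giving 56605 probes, of which 28885 were well above background on NS or NAC + CY (47.1% and 49.9% of all probes on each array). No spot was saturated. Since the number of arrays is 1 a side, it limits the precision of every value. The criteria for a call, a Z-score and a ratio, follow the authors' methods, and the window of 200 probes was set here. After 75th percentile scaling, 7 spike-in controls differed by -0.40 log2 units (range -0.46 to -0.36).

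Probes were named through RefSeq GRCm38.p6 by accession (33895), symbol (9464) or synonym (489), and 12757 kept the name in the files. Probe positions are those of the files, on mm9. The members and the 46 gene lists were chosen with earlier results of these data known. Genes named are the 10 highest and 10 lowest Z-scores, up to 5 members of a list with the largest absolute log2 ratio, members with a defining role that were not called, the genes of the study's RT-PCR, *Actb* and *Gapdh*. Other members named to describe a list, and genes named with a promoter motif, were chosen after their values were seen. A gene that the rule gave is not reported here. Samples were grouped by their labels. Simulated arrays with known differences were used to check the calling step. Alternatives covered normalisation, background correction, filters, a floor, the window, the Z-score, the ratio and the probe taken for a gene. The normexp correction (offset 50) came from limma 3.58.1 in R 4.3.3, and the other steps ran in Python 3.11.15 (numpy 2.4.6, pandas 2.3.3, matplotlib 3.10.9).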

Additional observations from a re-analysis of the deposited data

How the results depend on the processing

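No paired analysis was possible because each condition has 1 array, and no replicate could be left out. The number of genes called higher (586) and lower (585) stayed within 1.5 times under 12 of 15 alternatives each. It was 1166 and 1293 with a median and MAD in the Z-score, 262 and 178 with a Z-score of 3, and 1169 and 930 with a ratio of 2 and no Z-score. The other alternatives gave 492 to 749 genes higher and 460 to 690 lower. They were quantile normalisation of the 2 arrays only, 75th percentile scaling, the normexp correction, the deposited value table, the filters and the floor. Further ones were the windows of 100 and 400 probes, the ratio of 2 with the Z-score, the brightest probe and leaving out the listed genes of other tissues. Hepatocyte genes were called higher in 23 of 34 (probes well above background on both arrays) to 85 of 93 (ratio of 2, no Z-score). Nrf2 targets were called higher in 10 to 24 cases, p53 targets in 9 to 21, and MHC class II genes lower in 5 to 10. The medians of these lists kept their sign. Medians of other lists changed sign under some alternatives. These were natriuretic peptides, fatty acid oxidation, respiratory chain, glycolysis, endoplasmic reticulum stress, heat shock, mesothelium, Schwann cells, Wnt, and complement. Of 224 genes that the naming rule gave, 155 were called, 102 of them under every alternative run for them, and none changed direction. Probes not well above background give only bounds, and no depth can add the spread between mice.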

Other observations

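Of 46 interferon-induced genes measured, 2 were called higher and 4 lower, where 2.97% of all measured genes were called in each direction. The number called lower was 0 to 4 under the alternatives. The median log2 ratio of the list was 0.27, with 33 of the 46 above 0. *Gbp6*, a guanylate-binding protein, had signals of 274 in the NS heart, 837 with CY, 496 with acrolein and 1689 with NAC + CY, whereas *Rsad2*, the antiviral protein viperin (-1.27), *Gbp4* (-1.09) and the chemokine *Cxcl9* (-1.67) were called lower. The antiviral genes *Ifit1* (0.84), *Ifit2* (0.83) and *Ifit3* (0.61) had positive log2 ratios without a call. Among cytokine signalling genes *Il1r2*, the decoy receptor for interleukin-1, was at least 3.42-fold higher, *Socs3*, a feedback inhibitor, was at 1.80 and *Cntf*, ciliary neurotrophic factor, at 1.97, while *Csf1*, the growth factor of macrophages, was called lower (-1.11).

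Retinoid and cytochrome P450 genes were called in both directions. *Lrat*, which esterifies retinol for storage, was at least 5.39-fold lower, and *Stra6*, the cellular importer of retinol, had signals of 948 in the NS heart, 264 with CY, 1262 with acrolein and 262 with NAC + CY. *Cyp2b10*, an enzyme of the family that activates CY and one that liver expresses, had 32.3, 148, 32.1 and 403, and *Cyp1b1*, a P450 of stromal cells, was at 1.01. Of 41 genes on this list 10 were called higher and 3 lower, and 8 of the 41 are on the hepatocyte list.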
